A study of Drosophila melanogaster with 110 samples.

Results

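E(z) and Su(z)12, which sit in the same protein complex, were compared by where each was found on the genome of control Kc167 cells. The comparison rests on 6 of the 110 samples of the series, 3 ChIP-seq libraries of E(z) and 3 of Su(z)12, chosen by their labels. Kc167 is an established Drosophila melanogaster line that the labels call hemocyte, and all 6 libraries came from cells given dsRNA against GFP for 4 days, the control (mock) treatment of a study of Rump depletion. Each library is represented by the list of peaks that the authors called with MACS2 against an input, with the position, the summit and the fold enrichment of every peak on the dm6 assembly. Overlapping peaks of the 6 lists (by 1 bp or more) were joined, which gave 2976 regions. A region with a peak in 2 or more of the 3 lists of a protein was a site of that protein. The lists hold no expression values, so the cell type was not checked against its markers.

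E(z) is the methyltransferase of Polycomb repressive complex PRC2, and Su(z)12 is the subunit without which the complex does not methylate its target, lysine 27 of histone H3. The trimethylated form, H3K27me3, covers silenced developmental genes such as the Hox genes, while the complex itself is concentrated at short Polycomb response elements (PREs) within these domains. PREs also hold PRC1, here represented by Ph, Psc and Pc, and DNA-binding recruiters such as Pho and Combgap (Cg).

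Of the 245 E(z) sites, 233 were also Su(z)12 sites and 12 were not. Of the 1297 Su(z)12 sites, the same 233 were shared and 1064 were not. Most shared sites lay in H3K27me3 domains, many of them at Hox and other developmental genes, and their E(z) and Su(z)12 summits nearly coincided. Most Su(z)12-only sites were short, G and C rich stretches in exons outside H3K27me3, and 1009 of them had peaks in Su(z)12 replicates 2 and 3 but not in replicate 1. Shared sites made up 7.83% of the merged regions, E(z)-only sites 0.403% and Su(z)12-only sites 35.8%.

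Sequence is shown for 200 bp around the median summit of sites among the highest-ranked of each kind, outside annotated UTRs. It was read from the RefSeq sequence of the same assembly (Release 6, plus strand, 5′ to 3′). Capitals mark GAGAG or its complement CTCTC, the core of sites for GAGA factor, a protein found at many PREs. The first 3 are shared sites, upstream of the LIM homeobox gene Lim1, in lncRNA:bxd of the bithorax complex and, by asRNA:PS4, in an intron of the Hox gene Ubx.
shared, Lim1, chrX:8805836-8806035: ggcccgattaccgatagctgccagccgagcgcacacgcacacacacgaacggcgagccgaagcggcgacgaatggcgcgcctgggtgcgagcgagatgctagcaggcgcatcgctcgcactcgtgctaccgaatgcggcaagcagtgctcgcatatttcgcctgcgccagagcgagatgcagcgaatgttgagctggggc
shared, lncRNA:bxd, chr3R:16764081-16764280: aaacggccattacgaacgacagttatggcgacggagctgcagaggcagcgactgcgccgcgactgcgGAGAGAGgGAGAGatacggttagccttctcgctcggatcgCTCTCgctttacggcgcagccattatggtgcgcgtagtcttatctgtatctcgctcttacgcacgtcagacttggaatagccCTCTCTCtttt
shared, asRNA:PS4, chr3R:16702950-16703149: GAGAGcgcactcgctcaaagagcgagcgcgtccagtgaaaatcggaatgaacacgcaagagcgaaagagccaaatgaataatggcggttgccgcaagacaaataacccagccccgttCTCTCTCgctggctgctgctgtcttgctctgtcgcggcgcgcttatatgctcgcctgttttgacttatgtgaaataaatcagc
The next 3 are Su(z)12-only sites with peaks in replicates 2 and 3, in exons of CG18130, SKIP and nAChRalpha3, which encodes a subunit of the nicotinic acetylcholine receptor. They come from the larger class, were among its highest-ranked sites, and were chosen after its position in exons was seen.
Su(z)12-only, CG18130, chrX:11990327-11990526: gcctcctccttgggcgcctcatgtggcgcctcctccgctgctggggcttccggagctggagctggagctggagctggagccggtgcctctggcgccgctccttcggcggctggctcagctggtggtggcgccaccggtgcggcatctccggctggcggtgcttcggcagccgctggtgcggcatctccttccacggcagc
Su(z)12-only, SKIP, chr3R:22277726-22277925: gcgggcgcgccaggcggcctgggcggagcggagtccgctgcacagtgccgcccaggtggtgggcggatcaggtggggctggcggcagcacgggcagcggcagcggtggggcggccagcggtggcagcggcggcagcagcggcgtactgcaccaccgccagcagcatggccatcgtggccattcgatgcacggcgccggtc
Su(z)12-only, nAChRalpha3, chrX:8285140-8285339: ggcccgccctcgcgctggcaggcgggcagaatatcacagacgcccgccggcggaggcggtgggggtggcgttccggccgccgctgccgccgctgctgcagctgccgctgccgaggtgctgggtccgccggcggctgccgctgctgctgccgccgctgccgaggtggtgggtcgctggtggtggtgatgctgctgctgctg
The shared windows held 65%, 56% and 52.5% G and C and the Su(z)12-only windows 73%, 77% and 77%. In 300 bp windows the median was 53.3% for all shared and 65.3% for all Su(z)12-only sites on the arms. The printed Su(z)12-only windows thus lay above the median of their class, and the Lim1 window lay near it. GAGAG occurred 6 times in the lncRNA:bxd window and 3 times in that by asRNA:PS4, with overlapping matches counted, and in none of the others.

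The lists differed in length. E(z) had 399, 214 and 328 peaks in replicates 1, 2 and 3, a mean of 314 ± 93.3 (SD, n = 3). Su(z)12 had 315, 2855 and 1378 peaks, a mean of 1516 ± 1276 (SD, n = 3). Su(z)12 replicate 1 fell within the range of the E(z) lists, and replicates 2 and 3 lay above it. The mean log2 number of peaks differed by -1.82 (E(z) minus Su(z)12), which did not exceed the spread between libraries (exact two-sided permutation test, p = 0.3, where 0.1 is the smallest p that 3 libraries against 3 allow). It was -2.71 without Su(z)12 replicate 1 (p = 0.1, exact permutation) and -1.12 without replicate 2 (p = 0.4, exact permutation). The labels call the replicates biological, and the depth of the libraries was not analysed here.

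Su(z)12 replicate 1 also stood apart from its own replicates in where its peaks lay. The Jaccard index is the number of bases that both lists of a pair covered, divided by the number that either covered. It was 0.540, 0.482 and 0.635 between Su(z)12 replicate 1 and E(z) replicates 1, 2 and 3. Its index was 0.130 with Su(z)12 replicate 2 and 0.215 with replicate 3, while replicates 2 and 3 gave 0.453 with each other. Su(z)12 replicate 1 and E(z) replicate 3 were called against the same input according to the labels, and only these lists among the 6 held mitochondrial peaks, 11 and 9. Names of the peaks inside the E(z) and Su(z)12 lists also carry other replicate numbers than the labels. The lists cannot show whether the label of Su(z)12 replicate 1 is right, so every value over 3 Su(z)12 lists, and the counts of shared and Su(z)12-only sites, rest on that label. Values without single libraries are given where they move a result by over 1.5 times.

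**Figure D1:**
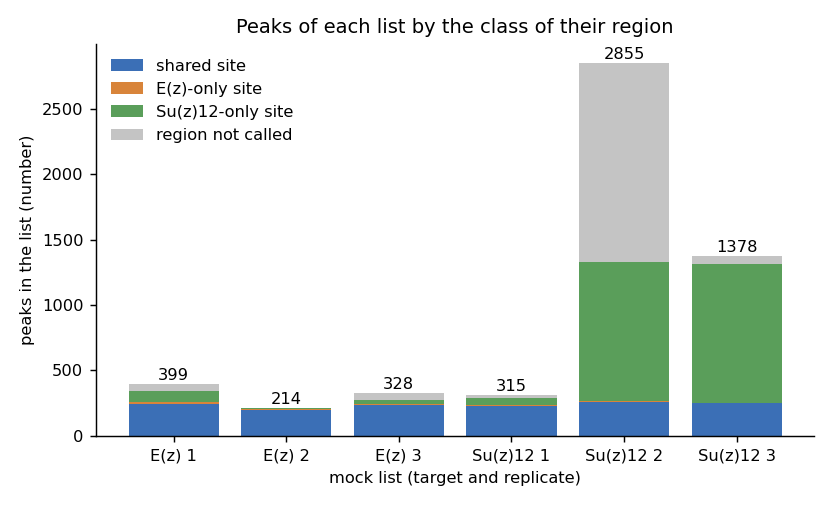
Number of peaks (vertical axis) in each of the 3 E(z) and 3 Su(z)12 mock lists, stacked by the class of the merged region they lie in. Shared sites take a similar height in all 6 lists, while Su(z)12-only sites and regions not called fill most of the 2855 and 1378 peaks of Su(z)12 replicates 2 and 3.

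Shared sites took 61.2%, 93.9% and 72.9% of the peaks of E(z) replicates 1, 2 and 3. They took 73.0% of the peaks of Su(z)12 replicate 1, but 9.00% and 18.3% of those of replicates 2 and 3. The number of shared sites with a peak was nevertheless alike in the lists, between 189 in E(z) replicate 2 and 233 in E(z) replicate 1, and 218, 231 and 226 in the Su(z)12 lists. Peaks of all 6 lists met at 166 regions. Near the limit of the rule, 15 shared sites had peaks in exactly 2 lists of each protein, 7 E(z)-only sites had peaks in 2 E(z) lists and 1 Su(z)12 list, and 96 Su(z)12-only sites in 2 Su(z)12 lists and 1 E(z) list.

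The share of E(z) sites with Su(z)12 was 95.1%, and it stayed between 86.1% and 98.3% when any library was left out. With 1 library of a protein left out, a site needed peaks in both remaining lists of that protein. The share of Su(z)12 sites with E(z), 18.0%, depended on 2 libraries. It was 82.7% without Su(z)12 replicate 2 and 80.9% without replicate 3, when the Su(z)12-only sites fell to 44 and 51. The 1009 sites with peaks in replicates 2 and 3 but not in replicate 1 could not qualify there. The fall thus restates the pattern of the lists. Leaving out replicate 1 gave 1049 Su(z)12-only sites. With the 214 peaks of highest fold enrichment taken from every list, 110 sites were shared, 80 were E(z)-only and 74 Su(z)12-only, and the share of E(z) sites with Su(z)12 was 57.9%.

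At shared sites the summits of the proteins nearly coincided. The distance between the median E(z) summit and the median Su(z)12 summit was 29 bp at the middle site of 233, against a median site width of 873 bp. It was at most 50 bp at 152 sites (65.2%) and at most 100 bp at 206 (88.4%). Only 5 sites exceeded 500 bp, and these lay by disco-r, en, Dr, kn and Abd-B, all genes of developmental transcription factors and all in regions of 1498 bp or more. The distance was 1344 bp at disco-r, in a region of 2286 bp, and 1266 bp at en, in a region of 3797 bp.

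**Figure D2:**
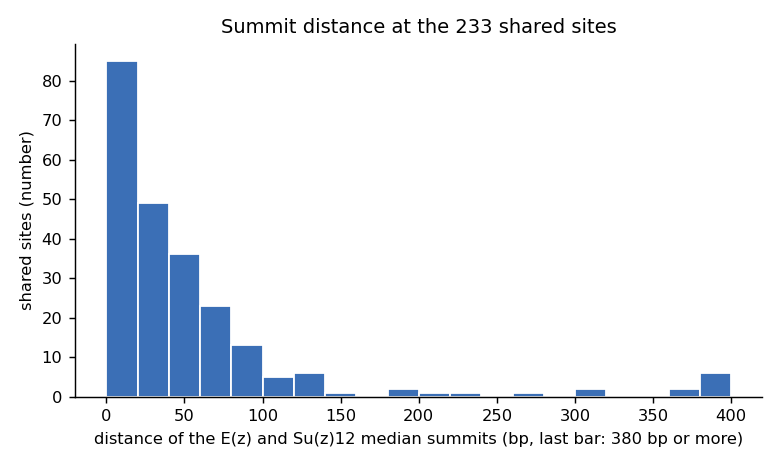
Number of shared sites (vertical axis) by the distance in bp between the medians of the E(z) and of the Su(z)12 summits (horizontal axis, bars of 20 bp, the last one for 380 bp or more). Of 233 sites, 206 lie at 100 bp or less.

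The distance between proteins was close to that between replicates of a protein. Median distances were 36, 32 and 39 bp for the pairs of E(z) lists and 34.5, 35 and 20 bp for those of Su(z)12, the shortest being replicates 2 and 3. The 9 pairs of an E(z) with a Su(z)12 list gave 30 to 41 bp. Pairs between proteins averaged 37.0 bp and pairs within a protein 32.8 bp, a difference of 4.25 bp (exact one-sided permutation test over the 10 splits of the 6 lists, p = 0.1, the smallest it allows). Without Su(z)12 replicate 1 the difference was 6.92 bp. Without Su(z)12 replicate 2 the difference was 0.58 bp and without replicate 3 it was 0.79 bp.

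The ranks of fold enrichment showed where the strongest peaks lay. Percentiles were computed within each list, from 0 for the lowest to 100 for the highest peak, because fold enrichment depends on the library. In E(z) replicates 1, 2 and 3 the median percentile was 70.4, 55.1 and 62.5 at shared sites and 41.0, 21.3 and 34.5 at the E(z)-only sites. In the Su(z)12 lists it was 62.2, 92.7 and 80.5 at shared sites and 22.2, 72.1 and 45.4 at Su(z)12-only sites. Shared sites ranked higher in all 6 lists, by 30.5 points on average for E(z) and 31.9 points for Su(z)12 (exact two-sided sign-flip permutation test, p = 0.25 for each, the smallest that 3 lists allow). The classes were set by peaks of these same lists, and the highest peak of each region was ranked. Shared sites were also wider, with a median of 873 bp against 469 bp for E(z)-only and 475 bp for Su(z)12-only sites. The test is therefore no independent support for the order.

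**Figure D3:**
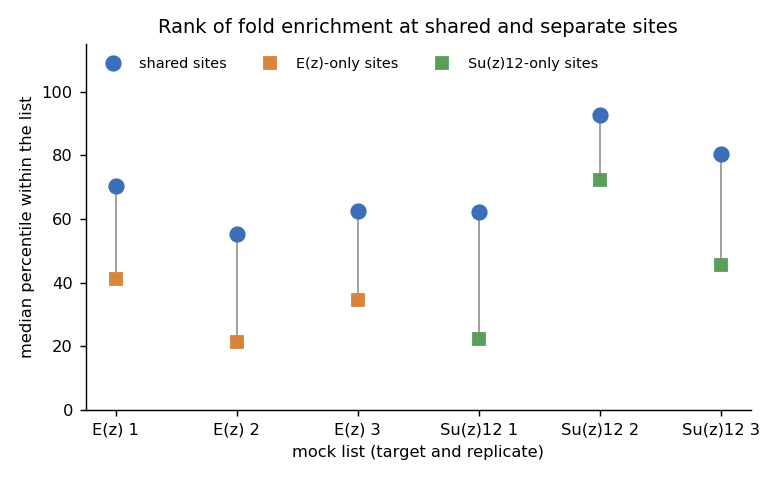
Median percentile of fold enrichment within each of the 6 mock lists (vertical axis) at shared sites (circles) and at the sites of that protein alone (squares). The circle lies above the square in every list, with the smallest gap, 20.6 points, in Su(z)12 replicate 2.

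Where all 6 lists had a peak, no difference in the order of the sites was detected. No region of 166 was called higher in E(z) (0%) or higher in Su(z)12 (0%) by limma on normal scores of the ranks with Benjamini-Hochberg adjustment, with a lowest adjusted p of 0.756. At an unadjusted p under 0.05 there were 7 regions, and 12 with log2 fold enrichment in place of ranks. The lowest unadjusted p belonged to a region by CG13323.

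The 10 shared sites that ranked highest in all lists were at or near developmental regulators, and all 10 were fully inside H3K27me3 and held Ph, Psc, Pc, Pho, Crol and Cg sites. At the Lim1 site (chrX:8804867-8807805), which contains an annotated start, the percentile was 100, 99.1 and 99.7 in E(z) and 99.9 or more in each Su(z)12 list. The fold enrichment there was 43.9, 37.0 and 19.5 in the E(z) lists and 19.6, 22.2 and 16.2 in the Su(z)12 lists. The site in an intron of lncRNA:bxd (chr3R:16763099-16764861), in the regulatory DNA upstream of Ubx, ranked between 99.0 and 100 in the 6 lists. Vsx1 on chromosome X, rib, which encodes a BTB transcription factor, oc (orthodenticle), a homeobox gene of head patterning, and the pair-rule gene opa were also among the 10. Others lay by asRNA:PS4 within Ubx, by lncRNA:CR45559 in the Antennapedia complex and by lncRNA:CR46267 within Abd-B. The lowest percentile of these 10 sites in any list was 92.1, at opa and at Vsx1.

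The bithorax complex, the Hox genes Ubx, abd-A and Abd-B, held 15 shared sites, 1 E(z)-only site and 6 Su(z)12-only sites between 2 kb beyond Ubx and 2 kb beyond Abd-B. The site over the start of abd-A (chr3R:16829354-16830627) ranked at 91.7, 96.3 and 96.6 in E(z) and at 94.9, 99.8 and 95.1 in Su(z)12. The E(z)-only site lay by mir-iab-8, in an intron of lncRNA:iab8, and had peaks in E(z) replicates 1 and 3, at percentiles 60.9 and 41.8. The Antennapedia complex held 11 shared and 11 Su(z)12-only sites. Its shared sites included the starts of lab, pb, Dfd and Scr, and 4 of its Su(z)12-only sites lay in exons of the cuticle protein genes Ccp84Ag, Ccp84Ae, Ccp84Ad and Ccp84Ac. At the start by lncRNA:CR45899 and Antp (chr3R:7000260-7001717) the percentile was 99.5, 82.7 and 100 in E(z) and 98.7, 99.6 and 99.6 in Su(z)12. Of the 22 sites of each complex all lay in H3K27me3.

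The segment polarity genes en and inv held 3 shared sites and no separate one. At the start of en the percentile was 91.5, 57.5 and 81.7 in E(z) and 78.3, 99.5 and 94.6 in Su(z)12. At the pair-rule gene eve, 1 shared site covered the start at percentiles of 94.0, 57.0 and 76.5 in E(z) and of 81.6, 99.2 and 95.5 in Su(z)12. Between eve and the neighbouring gene TER94, which encodes an AAA ATPase, 1 Su(z)12-only site lay in an exon of lncRNA:CR45324. It was 753 bp from the nearest start of TER94 and outside H3K27me3, at percentiles 64.6 and 30.0 in Su(z)12 replicates 2 and 3. The site also met sites of Ph, Psc, Pc, Pho and Crol and of the insulator proteins CP190, Su(Hw) and Mod(mdg4), but none of Cg or CTCF.

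Among gene lists, a gene counted when a site lay in it or in the 2 kb upstream. Of 18358 annotated genes, 180 had a shared site (0.98%) and 978 a Su(z)12-only site (5.33%). All 3 genes of the bithorax complex and 5 of 6 of the Antennapedia complex had a shared site, the exception being ftz. Of 28 NK and other homeobox genes 17 had a shared and 18 a Su(z)12-only site, and hth, a cofactor gene of Hox proteins, had 4 shared sites. Of 26 segmentation and patterning genes 9 had a shared and 9 a Su(z)12-only site, the former including cad, en, eve and wg. Of 40 other developmental regulators 26 had a shared site and 22 a Su(z)12-only site. At rn, a zinc finger gene of leg and wing patterning, there were 6 Su(z)12-only sites and no shared one. Of 17 hemocyte genes, lz alone had a shared site, and of 14 housekeeping genes none had. Apart from the hemocyte and housekeeping lists, these lists name genes known as Polycomb targets, and the counts describe them.

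Genes of the Polycomb system and of the profiled proteins were also read. Of 9 genes of PRC2 and its partners, jing had 1 shared site and the genes of E(z), Su(z)12 and esc had none of any class. Of 7 PRC1 genes, Psc and Su(z)2 had a shared site each, while Pc and ph-d each had a Su(z)12-only site. Of 17 recruiter and insulator genes, grh and mod(mdg4) had a shared site.

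H3K27me3 cover separated the classes. A peak or site counted as covered when at least 50% of its bases lay in broad peaks of both mock H3K27me3 libraries. Of the peaks in E(z) replicates 1, 2 and 3, 74.7%, 93.5% and 86.0% were covered, and of those in Su(z)12 replicates 1, 2 and 3 80%, 25.9% and 31.6%. Su(z)12 replicate 1 lay within the range of E(z), and replicates 2 and 3 lay below it. The mean was 84.7% ± 9.45 for E(z) and 45.8% ± 29.7 for Su(z)12 (SD, n = 3 each), a difference of 38.9 percentage points (exact two-sided permutation test, p = 0.2). It was 55.9 points without Su(z)12 replicate 1 (p = 0.1, exact permutation, the smallest possible) and 22.4 points with lists of equal length.

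By site, 217 of 233 shared sites were covered (93.1%, Wilson 95% interval 89.1% to 95.7%) and 11 of 12 E(z)-only sites. Of 1064 Su(z)12-only sites 202 were covered (19.0%, 16.7% to 21.5%), and 857 had no base in H3K27me3. Over all 2976 merged regions 25.7% were covered. The intervals reflect counting error only. The covered share of Su(z)12-only sites was 18.3% without Su(z)12 replicate 1, 43.2% of 44 without replicate 2 and 56.9% of 51 without replicate 3. Of 274 H3K27me3 domains of at least 2 kb, 113 held a shared site, and these were long, with a median of 38456 bp and 78.4% of all domain length. Another 33 domains held Su(z)12-only sites and no shared site (median 11258 bp), and 126 held no site of either protein (median 6933 bp).

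The partners fell into those that followed the H3K27me3 pattern and those that did not. A partner site was a merged region with peaks in at least 2 of the 3 mock lists of that protein. Psc sites met 81.0%, 99.5% and 88.1% of the peaks of E(z) replicates 1, 2 and 3 and 87.9%, 17.9% and 28.1% of those of Su(z)12. Pc sites met 74.9%, 99.1% and 84.1% in E(z) and 78.1%, 20.8% and 24.7% in Su(z)12. Both PRC1 subunits thus separated E(z) and Su(z)12 replicate 1 on the one side from Su(z)12 replicates 2 and 3 on the other, with a mean difference of 44.9 points each (exact permutation test, p = 0.2, adjusted p = 0.43 over 10 partners). Ph, the other PRC1 subunit, met 94.99%, 99.5% and 84.5% of E(z) peaks and 90.5%, 60.7% and 87.0% of Su(z)12 peaks, so that the groups overlapped. Pho met 97.2%, 99.5% and 87.5% against 92.4%, 70.4% and 89.6%, and Cg met 93.0%, 96.7% and 77.1% against 85.1%, 56.3% and 77.5%. Without Su(z)12 replicate 2 the mean differences fell from 13.6 to 4.25 points for Ph, from 10.7 to 3.79 for Pho and from 16.0 to 7.66 for Cg. Crol, a zinc finger protein of the study, met means of 85.1% of E(z) and 85.3% of Su(z)12 peaks.

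CP190 and CTCF sites were found at few peaks of either protein. CP190 sites met 9.92% ± 1.18 of E(z) and 6.93% ± 2.28 of Su(z)12 peaks (SD, n = 3 each), and CTCF sites 6.81% ± 0.35 and 4.12% ± 2.205. The CP190 difference of 2.99 points was 1.85 without Su(z)12 replicate 3. Su(Hw) sites met 34.8%, 14.0% and 16.5% of the peaks of E(z) replicates 1, 2 and 3 and 21.9%, 22.5% and 29.8% of those of Su(z)12. Mod(mdg4) sites met 29.8%, 9.81% and 13.7% against 19.0%, 17.6% and 21.8%. By site, Su(Hw) was at 20.6% of shared and 33.8% of Su(z)12-only sites, and at 22.1% of all merged regions. Over the 10 partners the adjusted p lay between 0.43 and 1. With lists of equal length the sign of the Ph, Pho and Cg differences turned, to -0.62, -0.31 and -1.56 points.

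**Figure D4:**
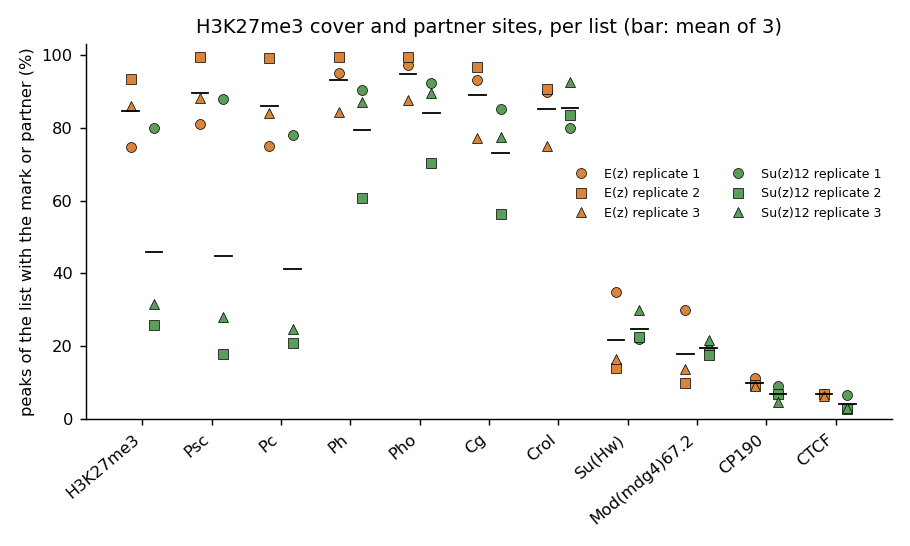
Percent of the peaks of each mock list (vertical axis) that were covered by H3K27me3 or met a site of each of 10 partner proteins (horizontal axis), with 1 symbol for each of the 3 E(z) and 3 Su(z)12 replicates and a bar at their mean. For H3K27me3, Psc and Pc the symbols of Su(z)12 replicates 2 and 3 lie at 17.9% to 31.6%, below the other 4 lists.

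By site, every shared site met a Ph and a Psc site, 232 of 233 a Pho site, 225 a Cg site and 216 a Pc site. Ph, Psc, Pc and Pho were all found at 216 shared sites (92.7%) and at 73 Su(z)12-only sites (6.86%). Of the Su(z)12-only sites, 87.7% met Ph, 90.6% Pho, 94.5% Crol and 77.8% Cg, whereas 13.3% met Psc and 10.5% Pc. Over all 2976 merged regions these shares were 58.9% for Ph, 68.9% for Pho, 81.1% for Crol, 54.5% for Cg, 17.8% for Psc and 20.9% for Pc. The partner lists differed in length, with 723 to 881 peaks for Psc and 639 to 769 for Pc. Ph lists held 2132 to 2769 peaks and those of Pho, Crol and Cg 4355 to 9372. Psc replicates 1, 2 and 3 singly had a peak at 155, 91 and 388 of the 1064 Su(z)12-only sites. For ranks, the highest partner peak at each site was taken. Shared sites were wider (median 873 bp against 475 bp for Su(z)12-only sites) and so could meet more peaks. Peaks of Ph, Psc, Pc, Pho, Crol and Cg ranked lower at Su(z)12-only than at shared sites in each of their lists. Those of Su(Hw) and Mod(mdg4) also ranked lower in each list, by 1.37 to 6.39 and 1.41 to 4.55 points. Those of CP190 ranked lower in 1 of 3 lists and those of CTCF in 2. The median percentile of the Ph peaks was 94.3, 95.4 and 94.2 at shared and 49.0, 62.9 and 48.8 at Su(z)12-only sites in the 3 Ph lists. In the Cg lists it was 82.7, 87.1 and 82.9 against 33.1, 46.5 and 23.1. Pc peaks, present at 93, 121 and 108 Su(z)12-only sites in the 3 lists, differed least among the PcG proteins, by 4.23 to 9.57 points. For each partner except CP190 and CTCF the p was 0.25, the smallest possible (exact two-sided sign-flip permutation test).

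Within the Su(z)12-only class, position in H3K27me3 went with the partners. Of the 202 sites inside, 51.0% met Psc and 50.0% Pc, and 103 lay within 10 kb of a shared site. Of the 862 sites outside, 4.41% met Psc, 1.28% Pc, and 7 lay within 10 kb of a shared site. Ph was found at 85.1% of the sites inside and 88.3% of those outside. The 19 Su(z)12-only sites with peaks in all 3 Su(z)12 lists and in no E(z) list were led by sites in exons of Abd-B, of lz, the Runx gene of crystal cell fate, and of Ino80, a gene of chromatin remodeling. The percentile at lz (chrX:9295175-9295698) was 52.4, 98.7 and 98.2 in Su(z)12 replicates 1, 2 and 3, and at Abd-B (chr3R:16931007-16931653) it was 52.4, 84.4 and 82.7. Sites in exons of hth and of the Bar homeobox gene B-H1 followed, and of these 5 sites only that in Ino80 lay outside H3K27me3.

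The E(z)-only sites were few and ranked low in their lists. The 12 were in H3K27me3 except the site in an exon of mod(mdg4), and 11 met Psc, 11 Pc and 9 Ph. In 9 of them 1 Su(z)12 list had a peak, and 3 had none in any. The site by CG13891 (chr3L:432570-432990) was the only one with peaks in all 3 E(z) lists, at percentiles 40.9, 50.5 and 64.3, and none in Su(z)12. Other E(z)-only sites lay in bi, the gene of a T-box factor, by HGTX and by rib. Their number was 20 without Su(z)12 replicate 1, 34 without replicate 2 and 29 without replicate 3. It was 3 without E(z) replicate 1 and 7 without E(z) replicate 3, where peaks in both remaining E(z) lists were required.

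In position and base composition the classes differed widely. Of shared sites, 47.2% contained an annotated transcription start, 12.0% another part of an exon, 15.9% lay in introns and 24.9% between genes. Of Su(z)12-only sites, 7.14% contained a start and 83.9% another part of an exon. Over all 2976 merged regions these shares were 12.3% and 68.0%. The median share of G and C bases was 48.1% (quartiles 44.3% and 52.1%) at shared and 62.6% (59.8% and 64.5%) at Su(z)12-only sites. It was 44.2% at the 12 E(z)-only sites. Over all merged regions on the arms it was 61.4%, near the value of the Su(z)12-only sites. Sites of the Su(z)12-only class inside H3K27me3 had 60.9% and those outside 63.0%. Without Su(z)12 replicate 2 the Su(z)12-only class had 60.6% G and C, 56.8% of it lay in exons and 11.4% contained a start. Without replicate 3 these values were 58.2%, 56.9% and 11.8%.

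**Figure D5:**
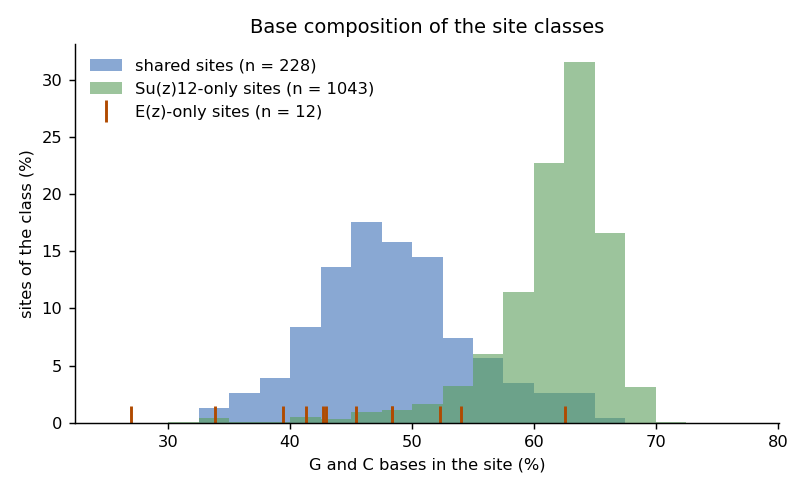
Percent of the sites of a class (vertical axis) by the percent of G and C bases in the site (horizontal axis), for 228 shared and 1043 Su(z)12-only sites on the chromosome arms, with a tick for each of the 12 E(z)-only sites. The medians are 48.1% and 62.6%.

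The lists showed the same split. The median G and C share of peaks was 51.8%, 50.1% and 49.0% in E(z) replicates 1, 2 and 3 and 49.3%, 61.7% and 62.9% in those of Su(z)12 (difference -7.69 points, exact two-sided permutation test, p = 0.3). Without Su(z)12 replicate 1 the difference was -12.0 points (exact permutation, p = 0.1). It was also high in the 3 mock Ph lists, at 60.2% to 62.5%, and in Psc replicate 3, at 58.8%, against 48.0% and 45.6% in Psc replicates 1 and 2. In the Pho lists it was 52.7%, 58.9% and 52.5%. The labels give Psc replicate 3 and Su(z)12 replicate 2 the same input. The part of base composition in the Su(z)12-only sites was not tested.

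Sequence around the summits was searched for 3 motifs of PRE-binding proteins on both strands, in 300 bp windows. GAGAG was in 78.1% of the shared, 28.4% of the Su(z)12-only and 30.2% of 445433 windows that tile the arms. GTGTGT, a repeat that Combgap binds, was in 43.4%, 8.25% and 17.8%. GCCAT, the core of the Pho site, was in 68.0%, 56.4% and 47.6%. The motifs share no overlap by their letters beyond an end base, and the windows had a median of 53.3%, 65.3% and 42.0% G and C, so the shares describe the windows only.

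Libraries that the site rule did not use, those of E(z) and Su(z)12 from rump RNAi cells, were read at the same sites. At least 2 of 3 rump RNAi E(z) lists had a peak at 219 of 233 shared sites (94.0%), and at least 2 of 3 rump RNAi Su(z)12 lists at 231 (99.1%). At Su(z)12-only sites the numbers were 35 of 1064 (3.29%) for E(z) and 548 (51.5%) for Su(z)12. At least 1 Su(z)12 list had a peak at 1058 (99.4%). Over all 2976 merged regions, at least 2 lists had a peak at 9.58% for E(z) and 28.2% for Su(z)12. At least 1 Su(z)12 list had one at 87.1% of them. The rump RNAi Su(z)12 lists held 368, 886 and 4267 peaks in replicates 1, 2 and 3. Of the 12 E(z)-only sites, 9 had peaks in 2 or more rump RNAi E(z) lists and 6 in 2 or more rump RNAi Su(z)12 lists. The median G and C share of the rump RNAi Su(z)12 lists was 48.9%, 63.0% and 60.5%, so that replicate 1 again lay with E(z), at 53.6%, 48.6% and 49.1%.

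At shared sites, no difference between the proteins in the distance of the summits from genes was detected. The median distance to the nearest transcription start was 673, 420.0 and 638 bp in E(z) replicates 1, 2 and 3 and 626, 648 and 658 bp in Su(z)12. The difference of the means was -67.3 bp (exact two-sided permutation test, p = 0.8), and E(z) replicate 2 alone lay below the other lists. Without it, the difference was 18.5 bp. It was -0.5 bp without E(z) replicate 1, and -132.5 and -121.2 bp without Su(z)12 replicates 1 and 2. Over all peaks on the arms, 34.1%, 40.2% and 32.3% of those in E(z) replicates 1, 2 and 3 contained a start. In Su(z)12 replicates 1, 2 and 3 these shares were 32.5%, 12.0% and 10.8%.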

How the data were processed

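The series holds 110 samples, of which 76 are immunoprecipitated libraries with a peak list. The 3 mock E(z) and 3 mock Su(z)12 lists were compared, with the mock lists of 10 partners and H3K27me3 and the rump RNAi lists of both proteins as further readouts. Groups came from the sample labels. For 17 inputs the title and the treatment label name different dsRNA, and they were not used. The study's methods state that Trim Galore 0.6.7 trimmed the reads (50 bp) and that Bowtie2 2.5.3 placed them on dm6 (FlyBase r6-52). Reads with a mapping quality under 20, rRNA reads and duplicates were removed. The submitters' processing notes name SAMtools 1.12, and MACS2 2.2.7.1 as the peak caller, run by the authors on single libraries with their inputs. Beads differed between immunoprecipitations and reads were single- or paired-end, which can change peak numbers.

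The fold enrichment in the deposited lists, a ratio of the signal to that of the input from the authors' MACS2 run, served only for ranks within a list. The deposited -log10 q was used as a threshold. The summit offset, a position in bp, is also as deposited by the authors. No read counts were analysed, so depth is unknown.

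Intervals were processed with Python 3.11.15, numpy 2.4.6, pandas 2.3.3 and scipy 1.17.1. Genes came from Ensembl release 115 (BDGP 6.54) without transposable elements, and all peaks on the 6 arms ended within the RefSeq sequence of the same assembly. Annotation was assigned in the order start, exon, intron, intergenic by 1 bp of overlap. H3K27me3 domains were the stretches covered in both libraries, joined when less than 1 kb apart. Comparisons of libraries used exact permutation tests, and ranks at regions with peaks in all 6 lists were tested with limma 3.58.1 (R 4.3.3, adjusted p threshold 0.05). The limma step was tested on simulated data.

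The members and gene lists were chosen with earlier results of these data known. Named are the 10 shared sites with the highest lowest percentile over 6 lists, up to 5 separate sites of each protein with peaks in all 3 of its lists and none of the other, members of the gene lists, and the eve to TER94, Antp and bithorax loci that the study names. A region takes the name of the gene with the nearest start. Of the 10 shared sites, 1 is not reported here by name. The en locus, rn, the Ccp84A genes, the sites with summits over 500 bp apart, the E(z)-only sites other than CG13891 and the 3 printed Su(z)12-only sequences were chosen after their values were seen. Replicate numbers do not pair the lists: over 166 regions the deviations of same-numbered E(z) and Su(z)12 lists correlated at -0.183, -0.067 and -0.021. Differently numbered lists gave -0.197 to 0.250. Among these, E(z) replicate 3 and Su(z)12 replicate 1, with the same input in the labels, gave 0.173.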

Additional observations from a re-analysis of the deposited data

How the results depend on the processing

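The numbers of sites depended on the length of the Su(z)12 lists. With lists of equal length there were 110 shared, 80 E(z)-only and 74 Su(z)12-only sites. With peaks required in 3 of 3 lists there were 83 Su(z)12-only sites. Leaving out 1 library gave 3 to 34 E(z)-only and 44 to 1124 Su(z)12-only sites, with 44 without Su(z)12 replicate 2 and 51 without replicate 3. The rule of 2 lists was kept in these runs, so the protein with 1 library left out needed peaks in both remaining lists. The share of Su(z)12 sites with E(z) was 59.8% with lists of equal length and 66.7% with 3 of 3 lists. Among partners, the difference in Crol, -0.22 points, turned to 0.19 with peaks of -log10 q of at least 10, to 4.85 without E(z) replicate 3 and to 3.34 without Su(z)12 replicate 3. Leaving out 1 library gave -2.98 to 4.85 points for Crol, -9.49 to 0.92 for Su(Hw) and -7.73 to 2.28 for Mod(mdg4). The signs turned for Su(Hw) without E(z) replicate 2 and for Mod(mdg4) without E(z) replicate 2 (2.28) or 3 (0.33). With lists of equal length Ph, Pho and Cg gave -0.62, -0.31 and -1.56 points, and the difference in distance to the nearest start was -132.5 to 18.5 bp with 1 library left out, positive without E(z) replicate 2. The cause was not tested in these cases.

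With the replicate number as a block, the difference in H3K27me3 cover was 38.9 points (p = 0.5, exact sign-flip permutation), in log2 peak number -1.82 (p = 0.5), and limma called 0 of 166 regions with 7 at an unadjusted p under 0.05, so the block changed no call. Calls by limma stayed at 0 in every alternative run, where 1 to 19 regions had an unadjusted p under 0.05. The runs with another rank measure, H3K27me3 rule or partner rule, or with 3 of 3 lists, gave limma the same values as the main run. Their counts could not differ from it. Summit distance could not be given with regions merged per target. Some settings were added after seeing the data: peaks on the chromosome arms only, which changed no direction, and the class values without single libraries. Of 249 alternative values, 218 kept their direction and side of the threshold or, for counts, stayed within 1.5 times the main value. With 3 lists a protein no permutation test could pass 0.05.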

Other observations

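Names of the peaks inside the lists carry replicate numbers that differ from the labels: 2, 4 and 5 in E(z) replicates 1, 2 and 3, and 5, 1 and 4 in those of Su(z)12. E(z) replicate 3 and Su(z)12 replicate 1, which carry the same number there and the same input in the labels, had the highest Jaccard index of the 15 pairs of lists, 0.635, and a Spearman correlation of fold enrichment of 0.876 over the 236 regions that both held. E(z) replicate 2 and Su(z)12 replicate 3 also carry the same number in their peak names, and gave 0.156 and 0.702. Peaks off the chromosome arms numbered 6, 0 and 28 in the E(z) lists and 26, 31 and 36 in the Su(z)12 lists. Su(z)12 replicate 2 alone held 53.5% of its peaks in regions that were no site of either protein, against 1.87% to 15.5% in the other lists.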
